A study of Homo sapiens with 4 samples.

Results

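The genes described here are 34 factors that cut and polyadenylate nascent mRNA, bind its poly(A) tail, end transcription or form the 3′ ends of histone mRNA. They were chosen by symbol from a list of known factors, and all 34 had a row among the 25283 rows of the count table and passed the filter on low counts that left 17317 genes. RNA-seq had been made from cells labelled neurons, which were grown out of the established human embryonic stem cell line H1 by way of neural progenitors and neuronal precursors. The control group, 2 libraries, carried an empty vector and was otherwise wild type. The U1_OE group, also 2 libraries, carried a lentiviral vector that overexpresses U1 snRNA, and the treatment lasted 36 hours. The treatment text of the control samples also names the overexpression vector, so the groups follow the genotype labels. No label says whether the libraries of a group were separate cultures. The p-values therefore reflect only how far these 4 libraries scatter, which may be technical.

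Library totals were 16713505 to 19057423 counts, and the lowest count of any of the 34 genes in any library was 46, for LSM11. The neuron label was at odds with the marker genes. Of 16 pan-neuronal markers, 2 had no row and 1 (TUBB3) reached 10 CPM (TMM-scaled CPM, the count as a share of the library) in every library. The median of the measured ones was 1.19 to 2.03 CPM, and the neuronal markers DCX and STMN2 were at 0 to 0.294 CPM. The sum over all measured pan-neuronal markers was 193 and 127 CPM in control against 340 and 374 CPM in U1_OE. Without TUBB3 it was 34 and 23 against 76.5 and 36.1 CPM. GAP43 alone had 3.30 and 1.27 CPM in control against 46.9 and 11.5 CPM in U1_OE. Nearly all of the excess without TUBB3 lay in that gene. Of the 10 tested pan-neuronal markers, 6 had positive and 4 negative log2 fold changes. edgeR called 0 of them, as it called 0 of all tested genes. DESeq2 called 2 (TUBB3 and GAP43, both higher in U1_OE), where it called 1.08% of all genes. All 12 mesenchymal and fibroblast markers exceeded 10 CPM in every library, with medians of 863 to 1513 CPM. Of the 12, 7 lay higher in both U1_OE libraries, where 19.7% of all tested genes did. The part of these markers in the values that follow was not tested. In bulk RNA, fewer cells of a type and less RNA per cell cannot be told apart.

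Most human mRNAs end at a site marked by the hexamer AAUAAA, which is bound by the cleavage and polyadenylation specificity factor (CPSF), together with a downstream U- or GU-rich element bound by the cleavage stimulation factor (CstF). A nuclease in CPSF cuts the RNA, a poly(A) polymerase adds the tail, and exonuclease digestion of the remaining RNA helps polymerase II to terminate. U1 snRNA, besides marking 5′ splice sites, represses use of premature poly(A) sites within introns, and this machinery is what it acts against. Replication-dependent histone mRNAs follow another route, in which a stem-loop bound by SLBP and a site paired with U7 snRNA replace the poly(A) signal.

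Most of the factors' own transcripts carry the signal that the factors read. In the last 50 bases of 1 annotated transcript per gene (GENCODE release 29, build GRCh38), the letters AATAAA were present for 27 of 34 genes (79.4%), against 11690 of 19566 protein-coding genes searched the same way (59.7%). The variant ATTAAA, counted only where AATAAA was absent, was present for 4 of the 34 (11.8%, against 13.4%), and neither for CPSF1, PCF11 and CASP8AP2 (8.82%, against 26.9%). Only the transcribed strand was searched. A match is a description and not a mapped cleavage site. The protein-coding genes searched were not limited to those expressed here. A transcript annotated without its full 3′ UTR may show neither hexamer, and the part of annotation in these shares was not tested. The lines show the signal of genes whose values are described most fully and of the paralog pair CSTF2 and CSTF2T, followed by 3 genes with the variant form. Capitals mark the hexamer, and each line is 5′ to 3′ on the transcribed strand, with the site's GRCh38 position at the end of the annotated 3′ UTR.
PPP1R10 (chr6:30600415-30600444, minus strand): ttgtacattaatAATAAAcagtggaaagag
FIP1L1 (chr4:53459633-53459662, plus strand): tactatttcaaaAATAAAaagacagcaatg
CPSF6 (chr12:69274324-69274353, plus strand): tcttgtattgaaAATAAAacaaacttttga
PABPN1 (chr14:23326144-23326173, plus strand): gttgtttttgaaAATAAAaattgtttggcc
SSU72 (chr1:1541676-1541705, minus strand): cctggaattgtcAATAAAcagatgctgctg
CSTF2 (chrX:100840889-100840918, plus strand): tctgtgacttgaAATAAActttgaacacaa
CSTF2T (chr10:51695491-51695520, minus strand): tttcatgcagaaAATAAAgatacaattaag
ZC3H14 (chr14:88627563-88627592, plus strand): tttaagacaaatATTAAAtacagaattcct
PPP1CB (chr2:28802903-28802932, plus strand): tgctgatgttttATTAAAccttatttttac
LSM10 (chr1:36393438-36393467, minus strand): ccagtgaggataATTAAAcatgctcagcct

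SLBP reads a different element, the histone stem-loop, shown here for 3 histone genes measured in these libraries, with stem and loop in capitals. The capitals of H2AC6 and H2BC21 are identical and those of H4C8 are a second form. The transcribed strand of 1 annotated transcript per gene was searched for a stem-loop pattern in which the loop bases were fixed. Of the 21 listed histone genes in the table, 8 had a match, against 24 of 19566 protein-coding genes (0.123%). A stem-loop with other loop bases was not counted, and a transcript annotated without its 3′ UTR cannot show a match. Both counts may therefore be too low. A gene without a match may still carry the stem-loop.
H2AC6 (chr6:26124662-26124691, plus strand): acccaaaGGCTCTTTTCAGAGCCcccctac
H2BC21 (chr1:149886181-149886210, minus strand): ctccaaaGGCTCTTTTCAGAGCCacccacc
H4C8 (chr6:26285124-26285153, minus strand): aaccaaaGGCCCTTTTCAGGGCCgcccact

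The design asks whether extra U1 snRNA went with altered mRNA levels of this machinery. By the quasi-likelihood test of edgeR, none of the 34 genes was called at a Benjamini-Hochberg adjusted p under 0.05 over all tested genes, and their lowest adjusted p was 0.565. The same test called 0 of 17317 genes (0%), so the members' count does not set them apart. At an unadjusted p under 0.05 edgeR had 0 of the 34 genes and 1572 of all tested genes (9.08%). DESeq2 called 0 of the 34 and 189 of 17440 genes (1.08%). At an unadjusted p under 0.05 DESeq2 had 1 of the 34, PPP1R10, and 1373 of 25283 genes. limma-voom called 0 genes.

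The log2 fold changes of U1_OE over control ran from -0.51 for PAPOLG to 0.54 for PPP1R10, and 32 of 34 genes differed by less than 25%. Their median size without sign was 0.12, against 0.26 for all tested genes and 0.20 for the 11587 genes within the same range of mean level (3.30 to 499 CPM). The 95% interval of the log2 fold change lay within 2-fold either way for 31 of 34 genes (91.2%), against 49.0% of all tested genes and 70.8% of genes in that range of level. The 34 had a median level of 33.6 CPM and a median SE of 0.16, against 10.0 CPM and 0.27 for all tested genes. Levels within the range were not matched. The 3 genes whose interval passed 2-fold were PPP1R10, PAPOLG and LSM11. The median log2 fold change was 0.06, beside -0.01 for all tested genes, and 21 of 34 values were positive (61.8%, against 49.3% of all tested genes).

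Both U1_OE libraries lay above both control libraries for 10 of the 34 genes (29.4%), against 19.7% of all tested genes. They lay below for 5 (14.7%), against 22.0%. The 10 were FIP1L1, CSTF3, CPSF6, PAPOLA, ZC3H14, PABPC4, PPP1R10, SSU72, XRN2 and SCAF4, and the 5 were CSTF2T, PAPOLG, PABPN1, PPP1CB and SCAF8. The other 19 genes had overlapping groups. In every role that had a gene with groups apart, another gene overlapped or lay on the other side.

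**Figure D1:**
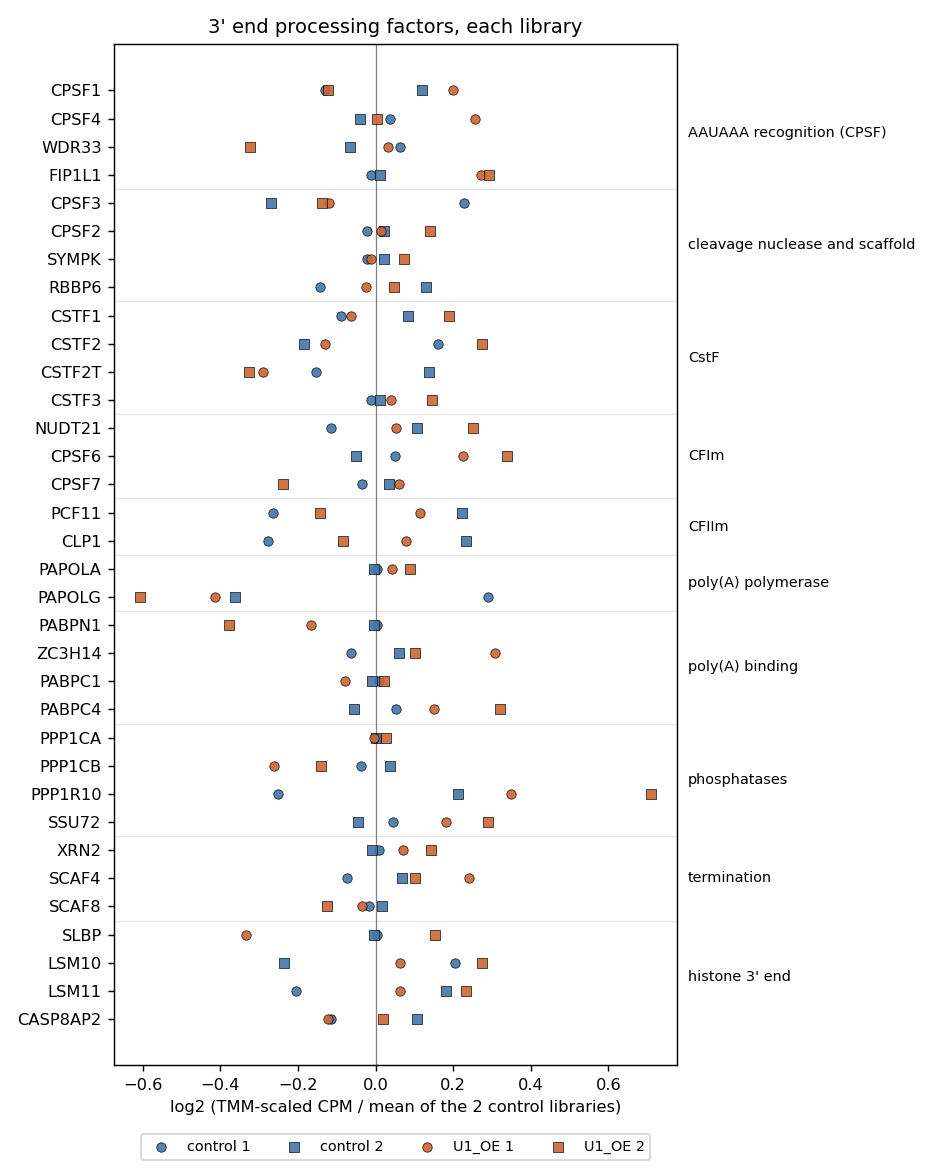
TMM-scaled CPM of each of the 34 genes in each library, as log2 of its ratio to the mean of the 2 control libraries (x axis), with genes grouped by role (y axis). FIP1L1 shows tight pairs that are apart, whereas PPP1R10 is apart with wide spread in both groups.

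**Figure D2:**
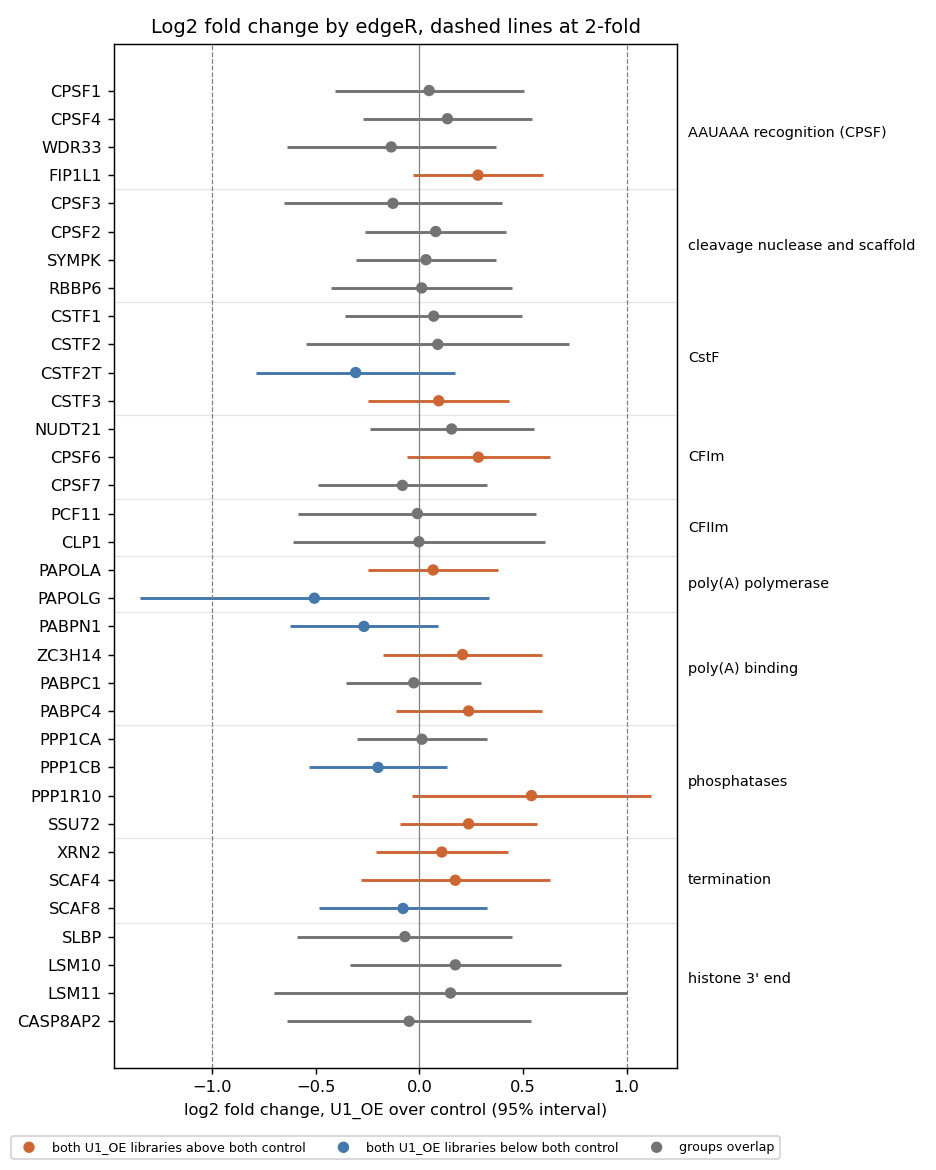
The log2 fold change of U1_OE over control by edgeR with its 95% interval for each gene (x axis), coloured by whether the groups overlapped. Dashed lines mark 2-fold; every interval includes 0, and 31 of 34 stay between the dashed lines.

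Among the 4 subunits that recognise AAUAAA, FIP1L1 was the gene with groups apart. FIP1L1, which ties CPSF to the poly(A) polymerase and binds U-rich RNA, had 45.9 and 46.7 CPM in control against 55.9 and 56.8 CPM in U1_OE. The libraries of a group differed by 0.800 and 0.850 CPM, while 9.20 CPM separated the nearest libraries of the groups. The log2 fold change was 0.28 ± 0.12 (SE), with an interval of -0.03 to 0.60 and an edgeR adjusted p of 0.571. CPSF4, which contacts the hexamer, had 25.9 and 24.6 against 30.1 and 25.3 CPM. WDR33, which also contacts it, had 18.4 and 16.8 against 18.0 and 14.1 CPM. CPSF1, the large scaffold subunit, had 61.1 and 72.7 against 76.7 and 61.5 CPM. These 3 genes overlapped between the groups, and the 2 groups of CPSF1 covered nearly the same range.

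The cleavage nuclease module showed no gene with groups apart. CPSF3, the nuclease itself, had 39.8 and 28.2 CPM in control against 31.3 and 30.9 CPM in U1_OE, so the wide spread was in the control group. CPSF2, its inactive partner, had 33.9 and 34.9 against 34.7 and 37.9 CPM. The scaffold SYMPK had 31.6 and 32.6 against 31.8 and 33.8 CPM. SYMPK's log2 fold change was 0.03 ± 0.13 with an interval of -0.31 to 0.37. RBBP6, a ubiquitin ligase needed for cleavage, had 18.8 and 22.8 against 20.5 and 21.5 CPM. The 4 log2 fold changes ran from -0.13 to 0.08.

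CstF has 2 interchangeable RNA-binding subunits, CSTF2 and its intronless paralog CSTF2T. CSTF2T had 14.4 and 17.6 CPM in control against 13.1 and 12.8 CPM in U1_OE, which were both lower, and its log2 fold change was -0.31 ± 0.19 (interval -0.79 to 0.17, edgeR adjusted p = 0.682), or -0.16 without control replicate 2. CSTF2 had 11.2 and 8.85 against 9.18 and 12.2 CPM. The groups of CSTF2 overlapped, and so did the ratio of CSTF2T to CSTF2 per exonic kilobase, which was 0.683 and 1.06 in control against 0.762 and 0.560 in U1_OE. CSTF3, the dimerisation hub, had 29.8 and 30.3 against 30.9 and 33.2 CPM, apart by a margin smaller than the difference between the 2 U1_OE libraries. CSTF1 had 24.0 and 27.0 against 24.4 and 29.1 CPM.

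Cleavage factor I (CFIm) binds UGUA motifs upstream of the cut and favours distal poly(A) sites. CPSF6, its larger subunit, had 34.5 and 32.2 CPM in control against 39.0 and 42.2 CPM in U1_OE, higher in both and 4.48 CPM apart at the nearest, more than the difference within either group. It had a log2 fold change of 0.28 ± 0.13 (SE), an interval of -0.06 to 0.63 and an edgeR adjusted p of 0.600. CPSF7, the alternative larger subunit, had 40.5 and 42.5 against 43.3 and 35.2 CPM and overlapped. The ratio of CPSF7 to CPSF6 per exonic kilobase, a pair chosen after its values were seen, was 1.57 and 1.77 in control against 1.49 and 1.12 in U1_OE, without overlap. NUDT21, the UGUA-binding subunit, had 58.0 and 67.7 against 65.2 and 74.9 CPM and overlapped. In cleavage factor II, PCF11, which bridges the polymerase tail and termination, had 20.4 and 28.6 against 26.5 and 22.2 CPM. The RNA kinase CLP1 had 11.6 and 16.5 against 14.8 and 13.3 CPM. Both genes overlapped, and the interval of PCF11 was -0.58 to 0.56.

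The canonical poly(A) polymerase PAPOLA lay close together in all libraries, at 88.4 and 88.0 CPM in control against 90.9 and 93.8 CPM in U1_OE, with an interval of the log2 fold change from -0.25 to 0.38. PAPOLG, its paralog at a far lower level, had 7.12 and 4.53 against 4.37 and 3.83 CPM. Its log2 fold change, -0.51 ± 0.33 (edgeR adjusted p = 0.694), rests on control replicate 1: it was -0.12 without that library and -0.80 without control replicate 2. The ratio of PAPOLG to PAPOLA per exonic kilobase was 0.121 and 0.0774 in control against 0.0722 and 0.0612 in U1_OE.

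The poly(A)-binding proteins did not lie on one side. PABPC1, the main cytoplasmic tail-binding protein, had 507 and 501 CPM in control against 478 and 511.5 CPM in U1_OE and overlapped, with an interval of the log2 fold change from -0.35 to 0.30. PABPC4, its inducible relative, had 86.1 and 79.8 against 92.0 and 103.6 CPM, with a log2 fold change of 0.24 ± 0.14 (edgeR adjusted p = 0.674), or 0.15 without U1_OE replicate 2. The ratio of PABPC4 to PABPC1 per exonic kilobase was 0.119 and 0.112 in control against 0.135 and 0.142 in U1_OE. ZC3H14, a nuclear zinc finger protein that binds poly(A), had 30.7 and 33.5 against 39.7 and 34.4 CPM, apart by a margin below the difference within either group. Its log2 fold change was 0.21 ± 0.15, or 0.11 without U1_OE replicate 1. Reads of PABPC1 and its near relatives may be shared by the authors' counting, so these levels are uncertain.

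PABPN1, the nuclear protein that controls tail length and represses use of proximal poly(A) sites, had 152.5 and 151.9 CPM in control against 135.7 and 117.2 CPM in U1_OE. Its log2 fold change was -0.27 ± 0.14 with an interval of -0.63 to 0.09 and an edgeR adjusted p of 0.638, and it became -0.37 without U1_OE replicate 1 and -0.17 without U1_OE replicate 2. The exons of PABPN1 lie inside the readthrough gene BCL2L2-PABPN1 on the same strand, so reads of one can be counted for the other. BCL2L2-PABPN1, chosen after its values were seen, had 16.0 and 13.3 CPM in control against 22.6 and 24.0 CPM in U1_OE, with a log2 fold change of 0.67 ± 0.17, an interval of 0.23 to 1.12, an edgeR adjusted p of 0.459 and a DESeq2 adjusted p of 0.491. The upstream neighbour BCL2L2 had 17.7 and 19.2 against 20.9 and 21.2 CPM.

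Summed, PABPN1 and the readthrough gene had 168.5 and 165.2 CPM in control against 158.3 and 141.2 CPM in U1_OE, still without overlap. The readthrough gene's part of that sum was 9.47% and 8.04% in control against 14.3% and 17.01% in U1_OE. The 2 rows thus lay in opposite directions, and how reads were divided between them was not tested.

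**Figure D3:**
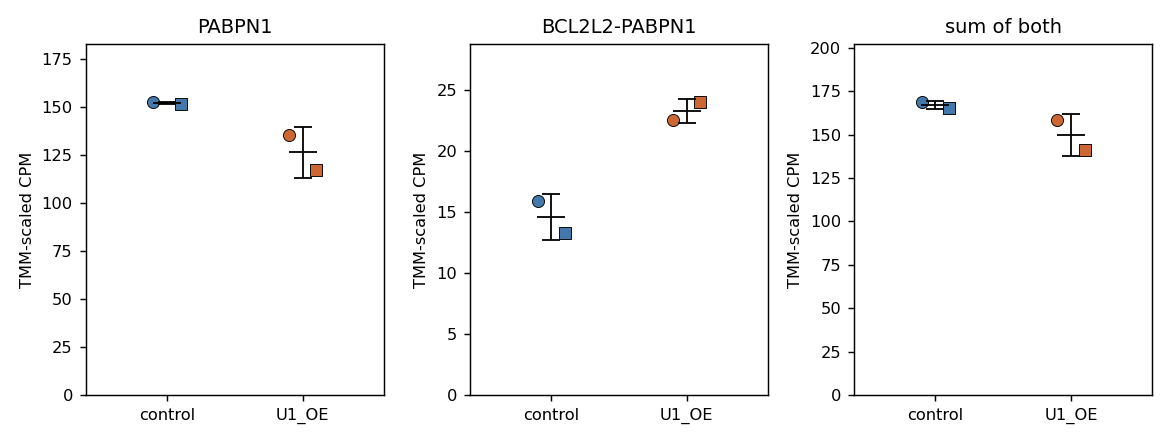
TMM-scaled CPM (y axes, from 0) of PABPN1, of the readthrough gene BCL2L2-PABPN1 and of their sum in each library, with circles for replicate 1, squares for replicate 2 and bars for the mean ± SD (n = 2). PABPN1 and the sum are lower, and the readthrough gene higher, in both U1_OE libraries.

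The phosphatase module, which acts on the polymerase tail and elongation factors as transcription passes the poly(A) site, held the largest log2 fold change of the 34. PPP1R10, the subunit that targets protein phosphatase 1 to this complex, had 30.0 and 41.3 CPM in control against 45.4 and 58.3 CPM in U1_OE. The groups were 4.09 CPM apart at their nearest, less than the 11.3 CPM between the 2 control libraries. The log2 fold change was 0.54 ± 0.22 with an interval of -0.04 to 1.12 and an edgeR adjusted p of 0.565. Without control replicate 2 the value was 0.79, without U1_OE replicate 1 it was 0.72, and it was 0.35 without either of the other libraries. PPP1R10 also overlaps MRPS18B on the opposite strand, which had 43.6 and 36.7 against 27.0 and 32.8 CPM and a log2 fold change of -0.43 ± 0.17; no strand-marking step is stated, so reads where the genes overlap cannot be told apart.

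The catalytic subunits of the phosphatase did not share one pattern. PPP1CA had 137.6 and 137.6 CPM in control against 137.3 and 140.1 CPM in U1_OE, and overlapped. PPP1CB had 88.3 and 93.0 against 75.6 and 82.3 CPM, with a log2 fold change of -0.20 ± 0.13 (edgeR adjusted p = 0.695), or -0.13 without U1_OE replicate 1. Their ratio per exonic kilobase, PPP1CB over PPP1CA, was 0.302 and 0.318 in control against 0.259 and 0.276 in U1_OE. SSU72, a phosphatase of the polymerase tail within CPSF, had 123 and 115.5 against 135.3 and 145.8 CPM, with a log2 fold change of 0.24 ± 0.13 (edgeR adjusted p = 0.656). For SSU72 the nearest libraries of the groups were 12.3 CPM apart, more than the 7.50 and 10.5 CPM within them.

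Of the termination factors, XRN2, the exonuclease that digests RNA left after cleavage, had 45.9 and 45.4 CPM in control against 48.0 and 50.4 CPM in U1_OE. SCAF4, which helps to prevent early polyadenylation, had 11.9 and 13.1 against 14.8 and 13.4 CPM. Its relative SCAF8 had 16.6 and 16.98 against 16.4 and 15.4 CPM. All 3 had groups apart by narrow margins, SCAF8 on the lower side, and intervals that included 0 and lay within 2-fold. The ratio of SCAF8 to SCAF4 per exonic kilobase, also chosen after its values were seen, was 1.50 and 1.40 in control against 1.19 and 1.24 in U1_OE.

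No histone 3′ end factor had groups apart. SLBP, which binds the stem-loops printed above, had 32.1 and 32.0 CPM in control against 25.4 and 35.7 CPM in U1_OE, which bracket the control. Its log2 fold change was -0.07 ± 0.20, 0.16 without U1_OE replicate 1 and -0.34 without U1_OE replicate 2. LSM10, a subunit particular to the U7 snRNP, had 102.7 and 75.7 against 93.2 and 107.9 CPM, and overlapped. Its partner LSM11 had 2.71 and 3.54 against 3.26 and 3.67 CPM. CASP8AP2, needed for histone transcription and processing, had 6.06 and 7.08 against 6.04 and 6.66 CPM, so these also overlapped.

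SLBP protein is tied to S phase. Of the 20 S phase and mitosis markers, 18 had negative log2 fold changes, 0 were called, and 5 lay lower in both U1_OE libraries, where 22.0% of all tested genes did. Their summed level was 249 and 328 CPM in control against 215 and 274 CPM in U1_OE. The sum and SLBP were both lowest in U1_OE replicate 1, but the sum was highest in control replicate 2 and SLBP in U1_OE replicate 2. The part of cell cycle state in the SLBP values was not tested. Of the histone genes with a printed stem-loop, H2AC6 had 318 and 358 against 296 and 328 CPM. H2BC21 had 18.1 and 19.9 against 27.0 and 20.9 CPM. H4C8 had 61.6 and 54.2 against 70.5 and 67.2 CPM. The latter 2 genes lay higher in both U1_OE libraries, and H2AC6 overlapped. All 3 genes are annotated beyond the stem-loop, so transcripts with other 3′ ends may be counted with them. Of 19 tested histone genes, 14 had positive values, 10 lay higher in both U1_OE libraries and 1 lower (19.7% and 22.0% of all tested genes did), and the median was 0.14. edgeR called 0 of them and DESeq2 called 3, where it called 1.08% of all genes. The 3 were H3C4 at 2.30 and 3.65 against 13.3 and 10.6 CPM, H4C11 at 0 and 0 against 6.96 and 4.88 CPM, and H4C15 at 0 and 0 against 25 and 2.41 CPM, each higher in both U1_OE libraries. H4C14, another listed H4 gene, had 44.3 and 33.9 against 9.61 and 41.3 CPM and overlapped. It was lowest in U1_OE replicate 1, where H4C15 was highest. Near-identical histone copies may share reads, so these values are uncertain. How reads were divided between H4C14 and H4C15 was not tested.

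Levels differed among the factors far more than between the groups. Per exonic kilobase, the mean over the 4 libraries was 105 CPM for PABPC1, 63.4 for LSM10, 51.0 for PPP1CA and 36.0 for PABPN1, down to 0.790 for CASP8AP2, 0.584 for PAPOLG and 0.501 for LSM11. Of the 33 neighbouring pairs in that order, 27 had overlapping library ranges. The other 6 boundaries lay below PABPC1, below PPP1CA, below PABPN1, below SCAF8, below ZC3H14 and below WDR33. The subunits of a complex were not at one level: in CPSF they ran from CPSF1 at 11.2 to WDR33 at 1.15, and in the U7 snRNP from LSM10 at 63.4 to LSM11 at 0.501 CPM per kilobase. The lengths are the union of all annotated exons, so a gene is placed too low where annotated exons are not used.

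**Figure D4:**
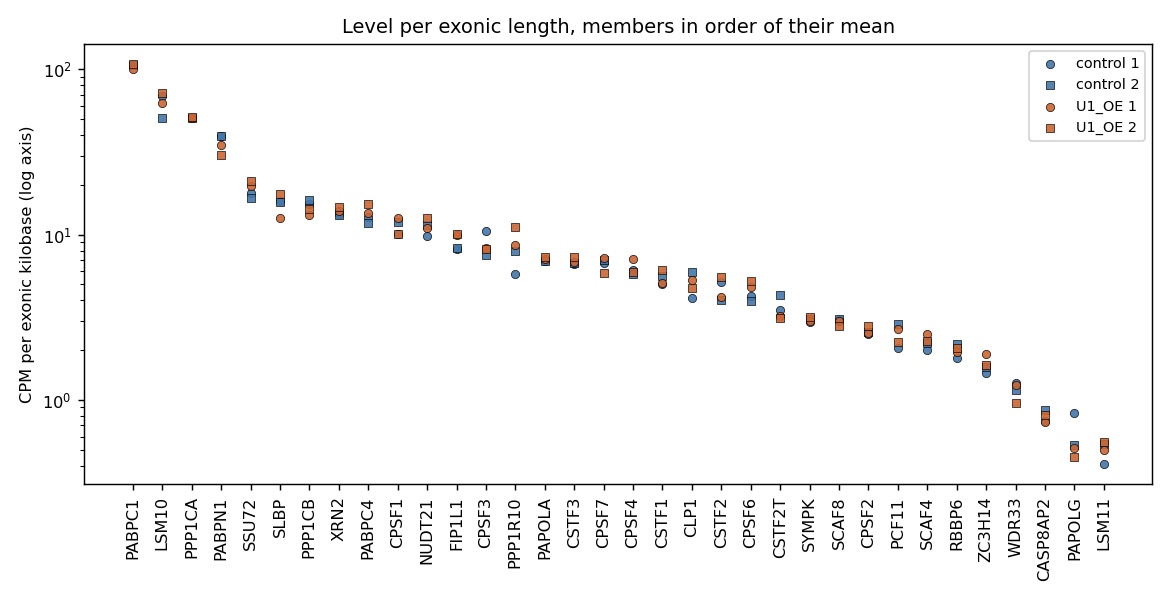
CPM per exonic kilobase of each gene in each library (y axis, log scale), ordered by the mean over 4 libraries (x axis). The levels run from 105 for PABPC1 to 0.501 for LSM11, and most neighbours overlap.

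**Figure D5:**
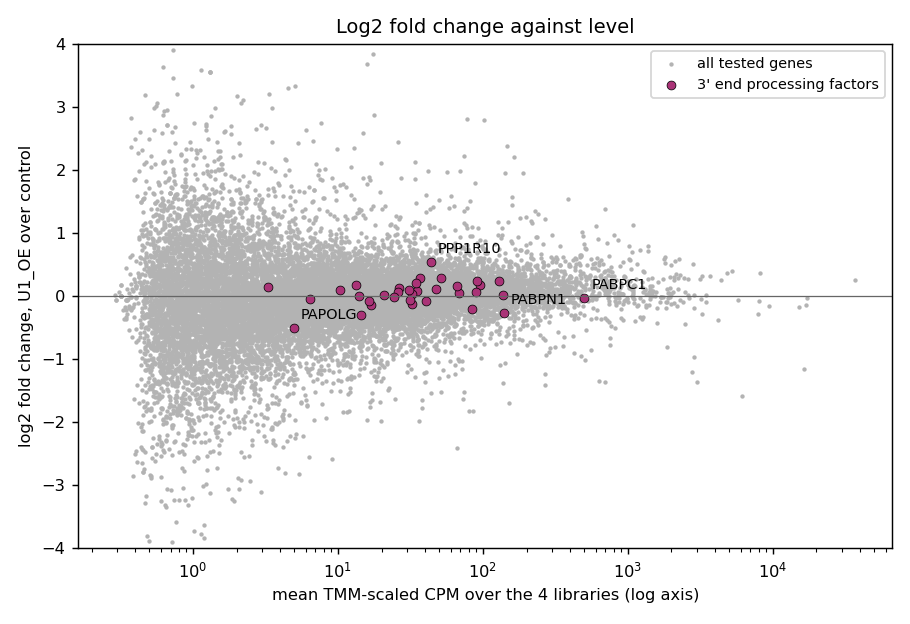
The log2 fold change of U1_OE over control by edgeR (y axis) against mean TMM-scaled CPM (x axis, log scale) for tested genes, with the 34 factors marked; genes beyond the y limits are not drawn. The factors lie between -0.51 and 0.54.

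U1 protects long genes from premature ends, so gene length was set beside the values. The 34 genes span 4105 to 110166 bp with a median of 34009.5 bp, close to the 33460 bp of protein-coding genes. Spearman's rho of span with log2 fold change was -0.03 over the 34 genes and 0.01 over 13207 protein-coding genes, given as a description because genes share these libraries. The 17 longer genes had a median log2 fold change of 0.03 and the 17 shorter ones 0.07.

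Partners of the machinery were taken as lists, and 0 of their genes were called by edgeR or DESeq2. The values in parentheses are log2 fold changes of U1_OE over control with SE, and levels are CPM with control first. Of all tested genes, 49.3% had positive values. Of 19 elongation factors and kinases, 15 had positive values, and 7 lay higher in both U1_OE libraries (19.7% of all tested genes did) and 0 lower, with a median log2 fold change of 0.13. SKIC8, a subunit of the cytoplasmic Ski complex that also associates with the polymerase, had 53.8 and 56.1 against 70.8 and 66.0 CPM (0.32 ± 0.13, edgeR adjusted p = 0.555). SUPT5H, the elongation factor that the phosphatase module acts on, had 121 and 106 against 165 and 129 CPM (0.37 ± 0.18). Of 15 termination and polymerase tail partners, 9 had negative values and 4 lay lower (22.0% of all tested genes did) and 0 higher, with a median of -0.04. Among these RECQL5, a helicase which restrains elongation, had 25.6 and 22.1 against 17.7 and 20.2 CPM (-0.33 ± 0.17).

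Of 25 tested deadenylases and tail regulators, 10 lay lower in both U1_OE libraries (22.0% of all tested genes did) and 4 higher (19.7% did), with a median of -0.06. CNOT6, a catalytic deadenylase, was among the higher ones at 6.89 and 6.58 against 9.85 and 11.1 CPM (0.64 ± 0.20, edgeR adjusted p = 0.501), while PARN, another deadenylase, had 20.2 and 26.0 against 16.1 and 17.8 CPM (-0.44 ± 0.19). The tail-extending enzyme TENT5A had 12.3 and 20.2 against 47.9 and 21.3 CPM, with U1_OE replicate 1 far above the other libraries. Of 20 cap and nuclear exosome adaptors, 10 were positive and 10 negative with a median of 0.00, and SRRT, which links the cap to 3′ processing, had 67.3 and 62.3 against 95.8 and 74.3 CPM (0.39 ± 0.17).

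Of 12 histone mRNA partners, 7 had negative values, with a median of -0.05. In both U1_OE libraries 1 lay higher (19.7% of all tested genes did) and 2 lower (22.0% did). The higher one was SNRPB, at 122.9 and 109.8 against 143.6 and 127.5 CPM (0.22 ± 0.14). MIF4GD, which bridges SLBP to translation, had 9.48 and 9.62 against 6.65 and 5.14 CPM (-0.70 ± 0.23, edgeR adjusted p = 0.509), and NPAT, the histone transcription coactivator, 8.83 and 8.57 against 6.59 and 4.98 CPM (-0.59 ± 0.24, adjusted p = 0.562). Of 17 tested regulators of poly(A) site choice, 11 were positive, with 6 higher in both U1_OE libraries (19.7% of all tested genes were), 5 lower (22.0% were) and a median of 0.08. NOVA1, a splicing and polyadenylation regulator best known from neurons, had 10.0 and 7.74 against 12.6 and 13.8 CPM (0.58 ± 0.21, edgeR adjusted p = 0.535). Of 8 listed paralogs of the 34, 4 had rows, and 2 of these lay lower in both U1_OE libraries (22.0% of all tested genes did). PABPC1L had 33.3 and 26.6 against 12.1 and 23.1 CPM (-0.77 ± 0.34). PABPC5, at a low level, had 1.59 and 2.05 against 0.616 and 0.786 CPM. PPP1CC had 83.1 and 88.0 against 86.2 and 101.6 CPM (0.13 ± 0.14) and overlapped.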

How the data were processed

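The values are estimated counts per gene, deposited by the authors without normalisation. Trim Galore, STAR, featureCounts and DESeq2 were used with build hg38, per the submitters' processing notes, which name no roles. Among values above 0, 1.99% lay within 0.01 of a whole number, and counts were rounded before testing; why they are fractional is not stated. In edgeR 4.0.16 (R 4.3.3), filterByExpr left 17317 genes, libraries were scaled with TMM, and a quasi-likelihood test compared U1_OE with control, adjusted by Benjamini-Hochberg over all of them at 0.05. Its SEs were worked back from the F statistic. Lengths and sites are from GENCODE release 29 (82.4% of rows matched). Alternatives were DESeq2 1.42.0, limma-voom (limma 3.58.1), the edgeR likelihood ratio test, other scalings and filters, a replicate block and each library left out. The procedure was tested on simulated counts. The members and lists were chosen with earlier results of these data known. All 34 genes were named, and up to 3 genes per partner list by smallest unadjusted p. U1 snRNA itself was not analysed here.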

Additional observations from a re-analysis of the deposited data

How the results depend on the processing

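No alternative called any of the 34 genes, and the lowest adjusted p of any of them was 0.458. Over all genes the count of calls was 0 by edgeR's quasi-likelihood test (1572 at an unadjusted p under 0.05) and by limma-voom, 189 by DESeq2 and 325 by the likelihood ratio test. At an unadjusted p under 0.05 there was 1 of the 34 by DESeq2, 1 by the likelihood ratio test and 1 with the replicate block. Over all genes these had 1373 of 25283, 1623 of 17317 and 1072 of 17317. The count of genes with groups apart, 15, was 12 with library size alone. It was 16 with RLE and 16 at a mean of at least 50 counts. With a library left out it was 22 to 27, where fewer values have to be apart. The median log2 fold change of the 34, 0.06, was 0.020 with library size alone and 0.0333 to 0.0979 with a library left out. The replicate block called 0 genes. Same-numbered libraries deviated with a correlation of -0.0823 over 17317 genes, so the numbers are not taken as pairs.

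18 of the 34 genes kept their sign in all 12 alternatives. Of the others, PCF11 was 0.0020 with RLE, 0.0044 by DESeq2 and 0.0043 with the replicate block, and CLP1 was 0.0097, 0.012 and 0.017 in these and 0.0095 by limma-voom. With library size alone SYMPK was -0.0032, RBBP6 -0.026 and PPP1CA -0.023, and at a mean of at least 50 counts RBBP6 was -0.0090 and PPP1CA -0.0075. With a library left out the log2 fold change ran from -0.11 to 0.19 for CPSF1, -0.31 to 0.029 for WDR33, -0.36 to 0.16 for CPSF3, -0.015 to 0.086 for SYMPK, -0.097 to 0.15 for RBBP6, -0.068 to 0.20 for CSTF1, -0.13 to 0.29 for CSTF2 and -0.23 to 0.057 for CPSF7. It ran from -0.21 to 0.25 for PCF11, -0.21 to 0.28 for CLP1, -0.081 to 0.033 for PABPC1, -0.0058 to 0.039 for PPP1CA, -0.34 to 0.16 for SLBP, -0.030 to 0.43 for LSM10, -0.0071 to 0.36 for LSM11 and -0.13 to 0.066 for CASP8AP2. The cause was not tested. With 2 libraries a group, the number of libraries limits the precision.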

Other observations

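The table also holds divergent and antisense noncoding transcripts named after some of the 34 genes, and 20 of 34 share bases with another gene of the table on either strand. The counts of these transcripts were low, and the genes were chosen after their values were seen. CSTF3-DT, divergent from CSTF3, had 15 and 12 counts in control against 1 and 0 in U1_OE, with an edgeR adjusted p of 0.481. PCF11-AS1 had 6 and 10 counts in control and 0 and 0 in U1_OE, where a count of 0 allows up to 0.184 and 0.157 CPM. PPP1CB-DT had 19 and 20 against 12 and 11 counts. PAPOLA-DT had 13 and 7 against 7 and 11 counts, and SSU72-AS1 had 14 and 17 against 21 and 9, so these overlapped. Without strand information, reads of such transcripts and of the genes they overlap cannot be told apart.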
